A study of Mus musculus with 12 samples.

Results

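The 7 genes described here, Gabra2, Gabra3, Gabra4, Gabra6, Gabrb1, Gabrb2 and Gabrd, code for subunits of the GABA-A receptor, and their RNA was counted in 12 mouse libraries labelled cerebellum, 1 of which (411) has marker levels that go against that label. They were chosen by name among the 55401 genes counted, and all 7 were found and passed the filter on low counts that left 19378 genes for testing. The other 12 GABA-A subunit genes of the mouse served as background, and 9 of them passed the same filter. The study tested a compound aimed at RNAs that carry an expanded CAG repeat, using mice that model spinocerebellar ataxia type 1 (SCA1). Knock-in mice were heterozygous (Het) for an Atxn1 allele with an expanded glutamine tract (genotype Atxn1154Q/2Q in the labels' spelling), an allele that is inherited and so not limited to a cell type. The 3 groups, each of 4 mice with 1 library per mouse, were wild-type mice given dimethyl sulfoxide (WT DMSO), Het mice given DMSO (Het DMSO) and Het mice given the compound Hit 2 in DMSO (Het Hit 2). No group of wild-type mice given Hit 2 was analysed here. Injection was intraperitoneal and daily from 18 weeks of age, in 2 courses of 5 days set apart by 2 days of rest, and tissue was taken at 20 weeks. Hit 2 was dissolved at 25 mg/ml, DMSO stayed under 4 ml/kg, and all 3 groups received DMSO. Strain and sex are not given in the sources used here, and libraries are named by animal number.

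GABA-A receptors are chloride channels opened by the inhibitory transmitter GABA. Each is a ring of subunits, most often alpha and beta subunits with a gamma or delta subunit, and the subunit mix sets where the receptor sits and which drugs it binds. Cerebellar granule cells are known for Gabra6 (alpha 6), which few other neurons use, and for Gabrd (delta), which with alpha 6 forms receptors outside the synapse that carry a steady inhibitory current. Gabra3 is known from monoamine and other brainstem neurons.

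The 4 alpha genes differ in a codon that decides whether diazepam binds. The stretch of coding sequence around that codon is shown because the alpha genes are also summed below by the residue it codes for. Each line gives 27 bases of the GENCODE M21 coding sequence, 5′ to 3′, with the codon in capitals.
Gabra2: gataccttctttCACaatgggaaaaag
Gabra3: gataccttcttcCACaatggtaaaaaa
Gabra4: gatactttcttcAGGaatggaaagaaa
Gabra6: gacacttttttcCGGaatgggaaaaag
Gabra2 and Gabra3 carry CAC, which codes for histidine, the residue of diazepam-sensitive receptors. Gabra4 carries AGG and Gabra6 carries CGG, both codons for arginine, the residue of receptors that diazepam does not modulate.

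The 250 bases before the RefSeq start of Gabra6 are shown because no other alpha gene spanned so wide a range of levels here. The window is chr11:42321073-42321322 on the minus strand of GRCm38.p6, written 5′ to 3′ along the gene.
Gabra6: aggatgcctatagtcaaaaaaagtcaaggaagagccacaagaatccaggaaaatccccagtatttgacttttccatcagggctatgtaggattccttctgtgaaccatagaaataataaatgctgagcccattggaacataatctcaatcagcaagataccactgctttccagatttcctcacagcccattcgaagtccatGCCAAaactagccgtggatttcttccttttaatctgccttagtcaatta
The capitals mark TTGGC on the opposite strand, a half-site of nuclear factor I, a family of factors known for its part in Gabra6 transcription in granule cells. It begins 49 bases before the start. Searched on both strands, TTGGC was present in 41.5% of 32851 such mouse windows, so its presence here is common. TTGGC was also present in a window of Gabra2, Gabra4, Gabrb1 and Gabrb2, and in neither of the 2 windows of Gabra3, so it does not set Gabra6 apart. RefSeq windows were found for 6 of the 7 genes.

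Depth ran from 15855751 to 45265719 reads assigned to genes per library. In its markers as well as its subunits, Het DMSO library 411 differed from the other 11. Its 12 granule cell markers summed to 459 CPM (counts divided by the scaled library size), against 4378 to 9672 CPM in the others. None of the 12 was at 0 in any library, but Cbln3 was at 2.52 CPM in 411 against 488 to 1048 CPM elsewhere, and Fat2 at 2.57 CPM against 1450 to 4019 CPM. Pcp2, a defining Purkinje cell gene, was at 0.554 CPM against 70.1 to 208 CPM. The 12 markers of midbrain and pons nuclei summed to 488 CPM in 411, 167 CPM in Het Hit 2 library 410 and 12.8 to 89.1 CPM in the other 10. Slc6a3, the dopamine transporter, was at 36.2 CPM in 411 and 0.0 to 1.10 CPM elsewhere, whereas the serotonin neuron genes Slc6a4 and Tph2 were higher in 410 (14.9 and 16.0 CPM) than in 411 (9.77 and 10.8 CPM). Oligodendrocyte markers summed to 7030 CPM in 411, 5853 CPM in 410 and 1373 to 3664 CPM in the others. Library 410 thus differed from the rest in the same direction as 411 in these sums and, less far, in granule cell markers. Forebrain markers summed to 78.3 CPM in 411 and 78.5 to 150 CPM elsewhere. However, 0 of these 12 forebrain genes were at 0 in 411, against 2 to 4 in each other library. Not all granule cell and Purkinje cell markers were as low in 411 as Cbln3, Fat2 and Pcp2. Etv1 was at 36.5 CPM there, Calb1 at 35.6 CPM and Car8 at 12.3 CPM, each below its range elsewhere. The 12 Purkinje cell markers summed to 593 CPM in 411 against 3161 to 7693 CPM. These levels go against the cerebellar label of library 411. Library 409, in the same group, had the highest granule cell sum, 9672 CPM, of which Fat2 made up 4019 CPM. Its granule cell markers did not move together: Slc17a7 was highest of the 12 libraries, at 750.5 CPM, while Etv1, at 194 CPM, was the lowest of the 11 libraries other than 411, and Neurod1 was at 134.5 CPM against 213 to 240.0 CPM in WT DMSO. Comparisons between groups are given with and without 409 and 411. In bulk tissue, fewer cells of a type and less RNA per cell cannot be told apart.

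**Figure D1:**
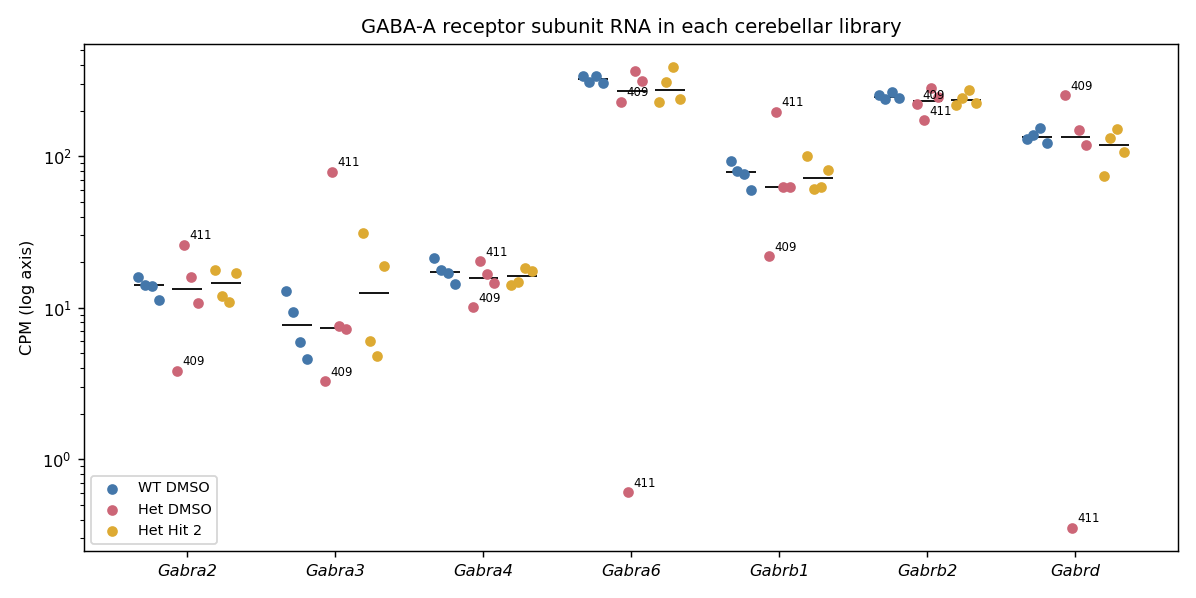
CPM of the 7 subunit genes on a log axis, 1 point per library coloured by group, with a bar at each group's median and libraries 409 and 411 numbered. Gabra6 and Gabrd fall below 1 CPM in library 411, while Gabra3 is at 79.1 CPM there.

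Gabra6, the granule cell alpha subunit, was the most abundant of the 7 per kilobase of exon. It was at 337, 310, 338 and 305 CPM in the WT DMSO libraries (413, 425, 426 and 431). The Het DMSO libraries 409, 411, 420 and 429 had 230, 0.604, 366 and 312 CPM. The Het Hit 2 libraries 410, 421, 422 and 430 had 227, 310, 388 and 240 CPM. All groups overlapped, and 1 library lay far below the others. Library 411 had 12 Gabra6 reads among 19362554, which is 0.62 CPM on the unscaled library (Wilson 95% interval 0.355 to 1.08), and its level was 513-fold lower than the median of the other 11. The next lowest library, 410, was also next lowest in the granule cell marker sum (4378 CPM). Library 409, with nearly the same Gabra6 level, had the highest granule cell sum (9672 CPM). The part of cell makeup in the Gabra6 level was not tested.

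Gabrd, the delta subunit that partners alpha 6 outside the synapse, followed with 129, 138, 154.5 and 123 CPM in WT DMSO, in the order of libraries above. It was at 253, 0.353, 150 and 119 CPM in Het DMSO and at 74.2, 132, 151 and 107 CPM in Het Hit 2. Library 411 was again lowest, with 7 reads, 0.362 CPM on the unscaled library (Wilson 95% interval 0.175 to 0.746), and was 373-fold lower than the median of the others. Library 409 was highest, at 1.96-fold the median of the others, and 410 was next lowest after 411. The ratio of Gabrd to Gabra6 CPM lay between 0.328 and 0.456 in 10 libraries. It was 1.10 in library 409, and 0.583 in library 411, where it rests on 7 and 12 reads.

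Gabrb2 codes for a beta subunit, the class that forms the GABA site together with alpha, and it varied least among the 7. It was at 252, 237, 265 and 243 CPM in WT DMSO, 220, 173, 281 and 246 CPM in Het DMSO, and 217, 242, 275 and 226 CPM in Het Hit 2. Library 411 was lowest and 420 highest, and the groups overlapped. Gabrb1, the other beta member, was at 92.9, 80.0, 76.6 and 60.2 CPM in WT DMSO. Its Het DMSO values were 21.8, 196, 62.5 and 62.8 CPM and its Het Hit 2 values 100.1, 60.3, 63.1 and 80.6 CPM. Library 411 held the highest Gabrb1 level and 409 the lowest. Per kilobase, Gabrb2 exceeded Gabrb1 in every library, by 4.72-fold to 9.80-fold in 10 libraries, 21.9-fold in 409 and 1.92-fold in 411.

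Gabra3, a diazepam-sensitive alpha subunit, had the widest spread of the other alpha genes. It was at 12.8, 9.40, 5.90 and 4.61 CPM in WT DMSO, 3.27, 79.1, 7.52 and 7.21 CPM in Het DMSO, and 31.1, 6.07, 4.80 and 18.8 CPM in Het Hit 2. Library 411 was 11-fold above the median of the other 11, and 410 and 430 came next. The 5 libraries with most Gabra3 (411, 410, 430, 413 and 425) were also the first 5 by the midbrain and pons marker sum, in the same order, with sums of 488, 167, 89.1, 64.5 and 64.0 CPM. A single gene of the list, Slc17a6, made up 277, 84.5, 48.4, 37.4 and 15.5 CPM of these sums. By Slc17a6 alone, library 429 (22.3 CPM) stood above 425, where Th was at 17.5 CPM. That list's sums ranged from 35.6 to 64.5 CPM in WT DMSO, 35.3 to 488 CPM in Het DMSO and 12.8 to 167 CPM in Het Hit 2, and all 12 of its genes were above 0 in libraries 411, 410, 430, 413 and 425. The order of the other 7 libraries differed between the measures: 409 was lowest in Gabra3 and 422 lowest in the marker sum. The part of these markers' cells in the Gabra3 level was not tested.

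**Figure D2:**
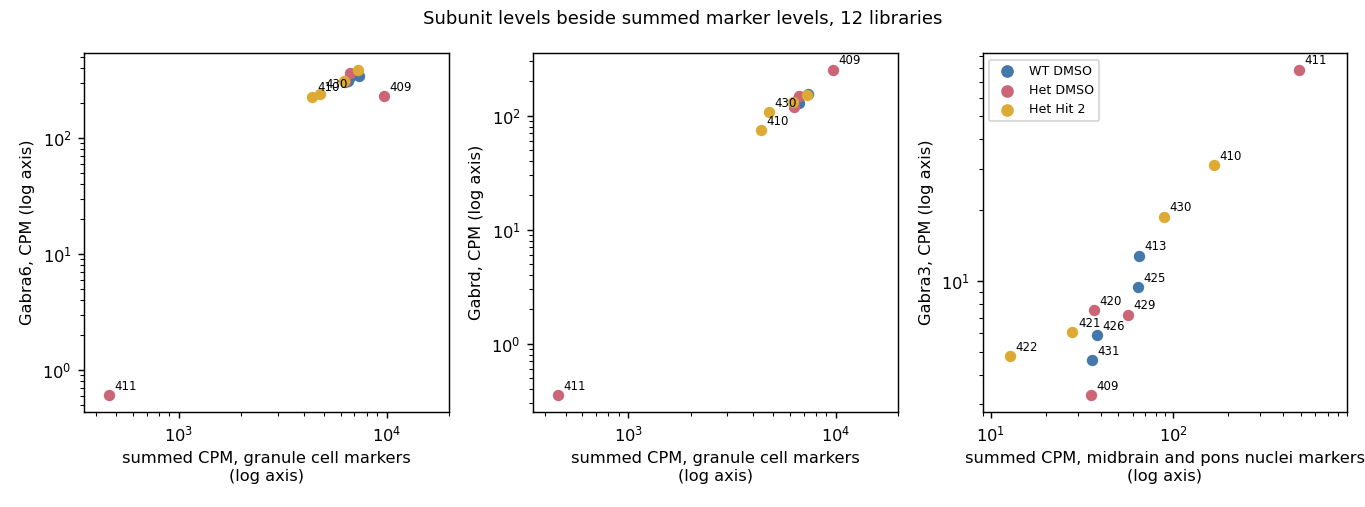
Gabra6 and Gabrd CPM against the summed CPM of 12 granule cell markers, and Gabra3 CPM against the summed CPM of 12 midbrain and pons markers, on log axes, 1 point per library. Library 411 is lowest for granule markers (459 CPM), Gabra6 and Gabrd, and highest for midbrain and pons markers (488 CPM) and Gabra3.

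Gabra2, the other histidine-bearing subunit, was at 15.9, 14.2, 13.9 and 11.3 CPM in WT DMSO, 3.84, 26.1, 16.0 and 10.8 CPM in Het DMSO and 17.9, 11.9, 10.9 and 17.0 CPM in Het Hit 2. Library 411 was highest and 409 lowest. Gabra4, which like alpha 6 bears arginine and can pair with delta, was at 21.4, 17.8, 16.9 and 14.3 CPM in WT DMSO, 10.1, 20.4, 16.6 and 14.6 CPM in Het DMSO and 14.2, 14.8, 18.3 and 17.6 CPM in Het Hit 2. Library 411 lay within the range of the others for Gabra4, so the arginine-bearing pair did not move together there.

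Library 409 was below the median of the other 11 libraries in 6 of the 7 genes and above it in Gabrd. It was 3.68-fold lower for Gabra2, 3.52-fold for Gabrb1, 2.30-fold for Gabra3, 1.67-fold for Gabra4 and 1.35-fold for Gabra6, with Gabrb2 at a ratio of 0.905. Gabrd also had the highest GC content in its longest coding transcript, 56.8%, against 38.4% (Gabra2) to 44.0% (Gabrb2) for the other 6. The part of base composition in the values of library 409 was not tested.

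**Figure D3:**
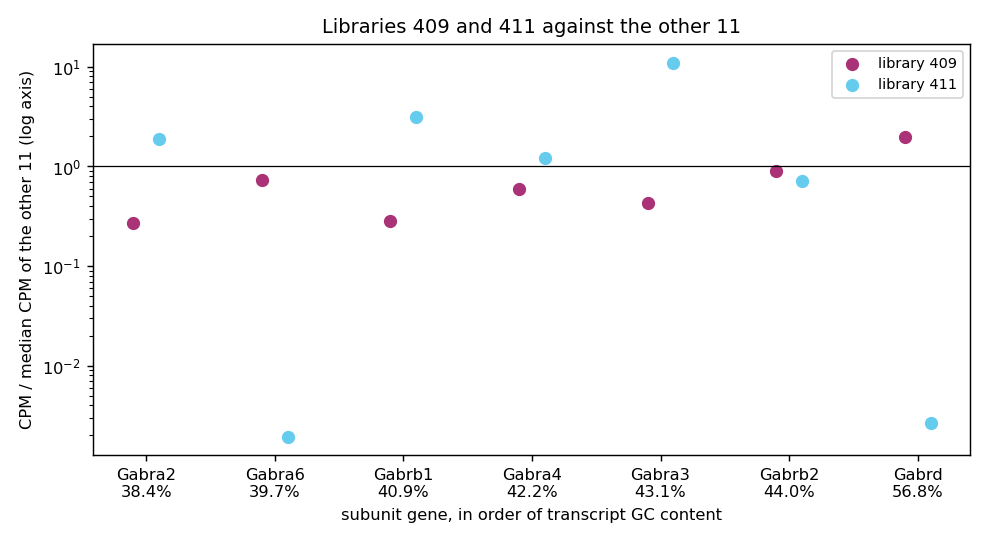
CPM of each subunit in libraries 409 and 411 divided by the median of the other 11 libraries (log axis), with genes in order of transcript GC content. Library 409 is above 1 for Gabrd alone, and library 411 is 513-fold below for Gabra6 and 11-fold above for Gabra3.

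Order of abundance was set on CPM per kilobase of exon, the scale that allows genes to be compared. In WT DMSO the medians were 130.1 for Gabra6, 46.5 for Gabrd, 38.9 for Gabrb2, 5.66 for Gabrb1, 2.85 for Gabra4, 1.95 for Gabra3 and 1.84 for Gabra2. Neighbours down to Gabra4 did not overlap over the 4 mice, whereas Gabra4, Gabra3 and Gabra2 overlapped one with the next. The same order held for the Het DMSO medians, where of all neighbours only Gabrb2 and Gabrb1 were free of overlap. In Het Hit 2 the median of Gabra3, 3.17, stood above that of Gabra4, 2.66, and their ranges overlapped.

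As a share of the 7 genes per kilobase, Gabra6 made up 55.9% to 57.6% in the WT DMSO libraries. Its Het DMSO shares were 42.0%, 0.353%, 57.7% and 58.1%, and its Het Hit 2 shares 53.3%, 57.1%, 59.5% and 52.1%. Gabrd made up 19.1% to 22.1% in WT DMSO, 40.2% (409), 0.178% (411), 20.5% and 19.2% in Het DMSO, and 15.1% (410), 20.98%, 20.0% and 20.1% in Het Hit 2. Libraries 420 and 429 therefore had a mix close to that of the wild-type mice, while 409 and 411 of the same group did not. The Gabra6 share was below the wild-type range in both, and the shares of the other 6 genes left that range in opposite directions in 409 and 411. In library 411 the mix was led by Gabrb2 (39.7%), Gabra3 (29.3%) and Gabrb1 (20.6%). The arginine-bearing genes Gabra4 and Gabra6 together made up 96.3% to 97.9% of the 4 alpha genes in WT DMSO, 13.2% in library 411, 90.1% in 410 and 93.4% in 430. Without a correction for length, the median Gabra6 share was 39.0% in WT DMSO, 35.7% in Het DMSO and 36.9% in Het Hit 2.

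**Figure D4:**
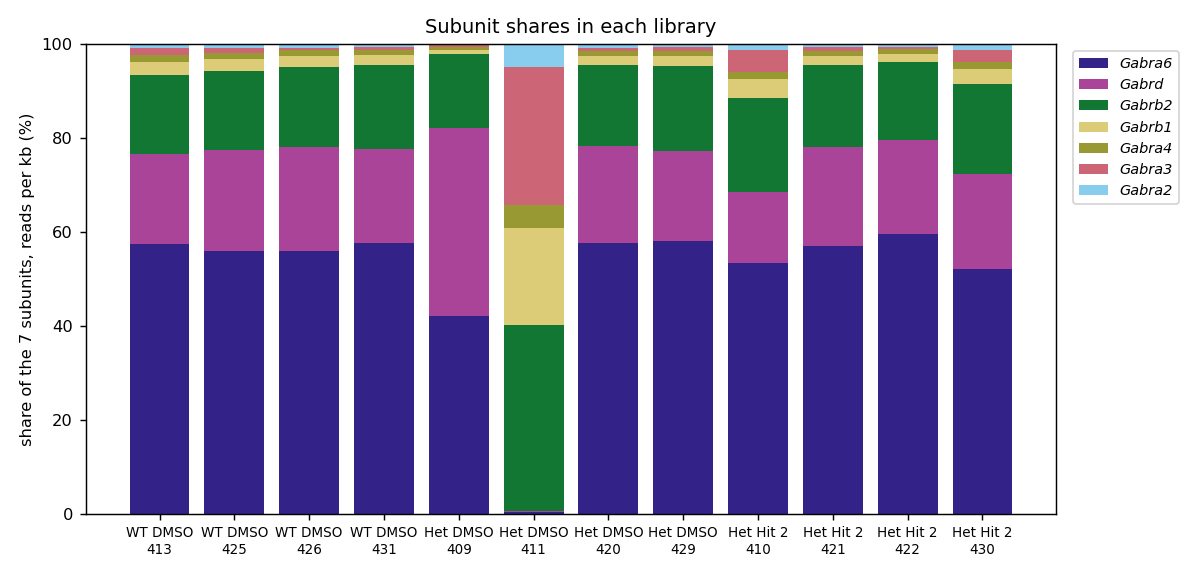
Stacked shares (percent, reads per kilobase) of the 7 subunit genes in each of the 12 libraries. Gabra6 fills 42.0% to 59.5% of 11 bars and 0.353% of the bar of library 411, and Gabrd fills 40.2% of the bar of library 409.

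The comparison of Het DMSO with WT DMSO asks what accompanied the knock-in allele. None of the 7 genes passed an adjusted p of 0.05 in edgeR's quasi-likelihood test, none had an unadjusted p under 0.05, and DESeq2 called 0 as well. Over all 19378 genes, 0.00516% (1 gene) were called and 1377 had an unadjusted p under 0.05. No member had groups that failed to overlap, which 4.39% of all genes did. Of the 7 log2 fold changes, 3 were above 0 and 4 below, with a median of -0.06 beside 0.05 over all genes. The mean of Gabra6 was 323 CPM ± 17.5 in the WT mice and 227 CPM ± 161 in the Het DMSO mice (SD, n = 4 each). Its log2 fold change was -0.51 (SE 0.92, 95% interval -2.51 to 1.49, edgeR adjusted p = 0.830), and its exact permutation test, two-sided, gave p = 0.343. Without library 411 it was -0.08, and without both 409 and 411 it was 0.06 (interval -0.35 to 0.47). Gabra3 had the largest log2 fold change of the 7, 1.57 (SE 0.93, interval -0.45 to 3.58, edgeR adjusted p = 0.616), which became -0.45 without 411 and -0.16 without 409 and 411. Gabrb2 had the narrowest interval, -0.44 to 0.20 around -0.12. The remaining values were 0.03 for Gabra2, -0.19 for Gabra4, 0.15 for Gabrb1 and -0.06 for Gabrd. Leaving out 409 and 411 keeps 2 Het DMSO mice, and moved Gabrb1 to -0.32 and Gabrd to -0.03, with 0 of the 7 called.

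The comparison of Het Hit 2 with Het DMSO asks what accompanied the compound, and it shares the Het DMSO libraries with the comparison above. None of the 7 genes was called by edgeR or by DESeq2, and with all 12 libraries none had an unadjusted p under 0.05. Over all genes 0.0% were called, and 301 had an unadjusted p under 0.05. No member's groups were free of overlap, against 1.03% of all genes. The log2 fold changes were 4 above 0 and 3 below, with a median of 0.03 beside -0.04 over all genes. Gabra6 was at 0.36 (SE 0.92, interval -1.63 to 2.36, edgeR adjusted p = 0.930), and Gabra3 at -0.68 (interval -2.66 to 1.30). Gabrb2 was at 0.06 (interval -0.26 to 0.38), Gabrd at -0.17, Gabrb1 at -0.17, Gabra4 at 0.07 and Gabra2 at 0.03. Without 409 and 411, Gabra3 was at 1.03 (interval -0.55 to 2.60), Gabra6 at -0.22 (interval -0.63 to 0.19), Gabrb1 at 0.27 and Gabrb2 at -0.14, so 4 of the 7 changed sign. Gabrd was then at -0.21 (interval -0.71 to 0.29). Without 411 alone, Gabrd was at -0.62, with an unadjusted p of 0.0436 and an adjusted p of 0.630 in edgeR, and Gabra3 was at 1.32 (edgeR adjusted p = 0.630).

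Het Hit 2 was also compared with WT DMSO, a contrast in which genotype and compound change together and cannot be told apart. None of the 7 was called by either tool or had an unadjusted p under 0.05, with 0.00516% of all genes called and 331 at an unadjusted p under 0.05. No member's groups were free of overlap, beside 6.32% of all genes. The fold changes were 2 above 0 and 5 below, with a median of -0.06 beside 0.02 over all genes. Gabra3 was at 0.88 (interval -1.11 to 2.88) and Gabrd at -0.23 (interval -2.20 to 1.73). Gabra6 was at -0.15, Gabra4 at -0.12, Gabrb2 at -0.05, Gabrb1 at -0.03 and Gabra2 at 0.06. Without library 410 the values were 0.26 for Gabra3, -0.0772 for Gabrd and -0.0548 for Gabra6, and without 422 they were 1.18, -0.39 and -0.32. With all 12 libraries, a 2-fold difference in either direction lay within the intervals of Gabra6, Gabrd and Gabra3 in each comparison. The exception was a 2-fold lower Gabra3 in Het DMSO against WT DMSO. Leaving out libraries 409 and 411 gave -0.16 for Gabra6 (interval -0.50 to 0.17) in Het Hit 2 against WT DMSO. Gabrd was then at -0.24 (interval -0.65 to 0.17) and Gabra3 at 0.86 (interval -0.36 to 2.08). In that fit, which keeps 2 Het DMSO mice, a 2-fold difference lay outside the intervals of Gabra6 and Gabrd in each comparison. A 2-fold higher Gabra3 stayed within its interval in each.

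**Figure D5:**
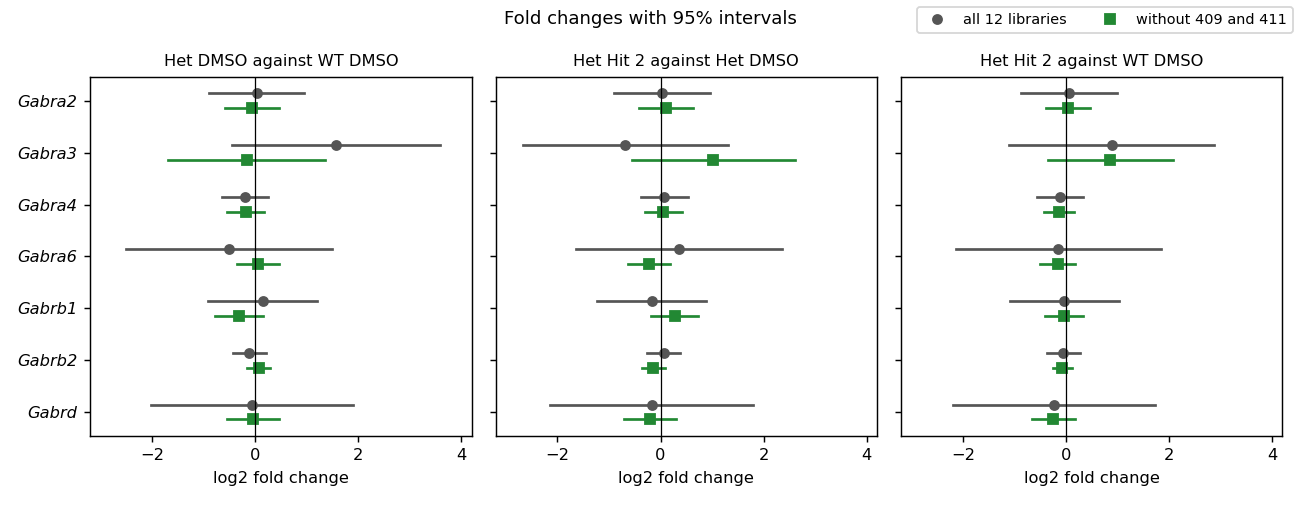
Log2 fold changes with 95% intervals for the 7 subunits in the 3 comparisons, from all 12 libraries (circles) and without libraries 409 and 411 (squares). All intervals cross 0, and those of Gabra6 in Het DMSO against WT DMSO narrow from -2.51 to 1.49 to -0.35 to 0.47.

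The genes whose profile over the 12 libraries lay nearest to a member were found among 16597 genes, by the root mean square difference of log2 CPM centred on each gene's mean. Gabra6 lay nearest to Cbln3 (0.321), a secreted cerebellin of granule cells, then Gm42912 (0.390) and Crtam (0.418). Gabrd lay nearest to Slc17a7 (0.204), the vesicular glutamate transporter of granule cells, then Cbln3 (0.220) and Ltbp2 (0.231). Gabra3 lay nearest to March1 (0.194), Resp18 (0.233) and Chrm2 (0.235), the last a muscarinic acetylcholine receptor. Gabrb2, which varied least, had its nearest gene at 0.0625 (Nsmce4a). Gabra2 lay nearest to Rab3c (0.165), Gabra4 to Ndufa4 (0.128) and Gabrb1 to 3110039I08Rik (0.169). Without 409 and 411 the nearest genes were Gm43061 for Gabra6 (0.065), Gm15513 for Gabrd (0.0801) and Mpped1 for Gabra3 (0.132). Neither Cbln3 nor Slc17a7 was then among the 3 nearest to Gabra6 or Gabrd. Their own differences without those libraries are not given here. The nearest were then Gmeb2 for Gabrb2 (0.0392), Slc1a4 for Gabra2 (0.12), Riox1 for Gabra4 (0.0818) and 2310022B05Rik for Gabrb1 (0.0775).

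The rest of the GABA pathway was read from 5 lists, and edgeR called 0 genes in either direction in each of them in all 3 comparisons with all 12 libraries. Without 409 and 411 it called 1, the GABA-B partner Kctd12. Of the other subunits, 9 were tested, and their median log2 fold changes were 0.81, -0.35 and 0.30 in the order of the comparisons above, and -0.06, 0.28 and 0.28 without 409 and 411. In library 411, Gabrg3 was at 37.7 CPM against 3.20 CPM ± 2.09 (SD, n = 4) in WT DMSO, Gabrg1 at 36.2 CPM against 9.36 CPM ± 1.27, and Gabra5 at 30.6 CPM against 1.44 CPM ± 1.18. These 3 genes were chosen after their values were seen. The 15 scaffold and receptor partner genes had medians of 0.33, -0.18 and 0.14 in the same order of comparisons, and -0.05, 0.14 and 0.12 without 409 and 411. Among them Nlgn2, the adhesion protein of inhibitory synapses, was at 323 CPM ± 24.8 in WT DMSO, 348 CPM ± 86.9 in Het DMSO and 298 CPM ± 10.9 in Het Hit 2 (SD, n = 4 each), with Het DMSO libraries 420 and 429 at 317 and 279 CPM. Gabarapl1, of the GABA-A receptor associated protein family, was at 454 CPM in library 411, 171 and 175 CPM in 420 and 429, and 178 CPM ± 11.3 in WT DMSO.

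The 8 genes of GABA synthesis, release, uptake and breakdown had medians of 0.23, -0.09 and 0.07, and -0.07, 0.04 and 0.06 without 409 and 411. Gad1, which makes GABA from glutamate, was at 363 CPM ± 12.8 in WT DMSO, 306 CPM ± 43.4 in Het DMSO (357 and 259.8 CPM in 420 and 429) and 315 CPM ± 28.7 in Het Hit 2. The 3 chloride transporters had medians of 0.11, -0.06 and -0.09, and -0.12, 0.02 and -0.10 without 409 and 411. Slc12a5, which exports chloride from neurons and so sets the direction of the GABA current, was at 688 CPM ± 69.9, 830 CPM ± 263 and 648 CPM ± 7.84 in the 3 groups, and at 699 and 574 CPM in 420 and 429. Slc12a2, which carries chloride into cells, was at 202 CPM ± 4.87, 180.3 CPM ± 34.6 and 176 CPM ± 26.8, and at 167.5 and 225 CPM in 420 and 429.

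The 5 genes of GABA-B receptors, the G-protein coupled receptors for GABA, and their partners had medians of 0.01, -0.15 and -0.23, and -0.33, 0.04 and -0.24 without 409 and 411. Kctd12, an auxiliary subunit that shapes the GABA-B response, was at 120.1, 198.5, 188 and 190.4 CPM in WT DMSO, 86.6, 51.5, 119 and 139 CPM in Het DMSO and 83.3, 93.0, 97.4 and 83.0 CPM in Het Hit 2. All 4 Het Hit 2 libraries were below all 4 WT libraries, and 6.32% of all genes likewise had no overlap between these groups. Its log2 fold change between those groups was -0.97 with all 12 libraries (edgeR adjusted p = 1.0). Without 409 and 411 it was -0.98 (edgeR adjusted p = 0.0197). Over all genes, 1 was called in the first fit and 90 in the second. Libraries 409 and 411 belong to neither group, but each fit estimates the spread over all its libraries. Gabbr1, 1 of the pair of subunits, was at 610 CPM ± 5.63 in WT DMSO, 615 CPM ± 139 in Het DMSO (506 and 487 CPM in 420 and 429) and 521 CPM ± 20.3 in Het Hit 2. Gabbr2, its partner, was at 346, 406, 424 and 420 CPM in WT DMSO, 339, 258, 311 and 259 CPM in Het DMSO and 239, 317, 293 and 322 CPM in Het Hit 2. Every Het library was below every WT library, and groups were likewise free of overlap in 4.39% of all genes when Het DMSO was set against the WT mice, and in 6.32% when Het Hit 2 was. The Gabbr2 log2 fold change was -0.45 in both comparisons with WT DMSO (SE 0.14 in each), which share those 4 libraries, with an exact two-sided permutation p = 0.0286 in each, the smallest that 70 assignments can give. The edgeR adjusted p was 0.616 for Het DMSO and 1.0 for Het Hit 2, so Gabbr2 did not pass the threshold. Without 409 and 411 the values were -0.50 (edgeR adjusted p = 0.394) and -0.46 (edgeR adjusted p = 0.129). Over all alternatives the adjusted p of edgeR or DESeq2 ran from 0.321 to 0.908 and from 0.129 to 1.0. Purkinje cells are known for abundant GABA-B receptors. The 12 Purkinje cell markers also summed lower in every Het library (593 to 6668 CPM in Het DMSO and 3161 to 6316 CPM in Het Hit 2) than in WT DMSO (7380 to 7693 CPM). The same separation was present in the 12 astroglia markers (2615 to 2819 CPM in WT DMSO, 2033 to 2502 CPM in Het DMSO and 2241 to 2406 CPM in Het Hit 2). The sums of the 12 markers of molecular layer interneurons and Golgi cells separated too (677.5 to 703 CPM, 317 to 663 CPM and 481 to 650.2 CPM in that order). Single genes of that list did not all follow its sum. Of 11 tested, 6 were above 0 in Het DMSO against WT DMSO (median log2 fold change 0.03). In Het Hit 2 against WT DMSO 4 were above 0 (median -0.09). In Het DMSO against WT DMSO, 1 of 12 Purkinje cell markers and 2 of 12 astroglia markers were above 0. Sums of the other marker lists overlapped between Het DMSO and WT DMSO. The part of these cell types in the Gabbr2 level was not tested.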

How the data were processed

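RNA was sequenced in 12 libraries labelled cerebellum. The authors deposited raw read counts per gene, 1 table per mouse in the layout of STAR, per the file headers. STAR 2.7.10a, FastQC 0.11.9 and the build GRCm39 (mm39) are named per the submitters' processing notes, and the annotation release is not given in the sources used here. Libraries were directional and depleted of ribosomal RNA, per the labels' protocols. The deposited counts of column 4 (the opposite strand) were used, and 5.21% to 6.47% of gene reads lay on the other strand. Reads not counted in a gene, 56.3% to 64.1% of a library, stayed out of library sizes. Among them, reads that mapped to no gene on that strand were 44.7% to 54.6% of a library. Symbols, exon lengths and coding sequence came from GENCODE M21 (GRCm38), where 55141 of 55401 identifiers matched, and promoter windows from RefSeq (GRCm38.p6). The coordinates of the Gabra6 window are on GRCm38.p6, and none are given on GRCm39, the build of the counts.

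All 12 libraries entered 1 edgeR 4.0.16 quasi-likelihood fit in R 4.3.3 (limma 3.58.1), with filterByExpr, TMM factors and no covariate. P-values were two-sided and Benjamini-Hochberg adjusted over 19378 genes at a threshold of 0.05. Levels are CPM on TMM-scaled sizes, and log2 CPM used a prior count of 2. Single genes also had an exact permutation test. Intervals of the Gabra6 and Gabrd levels in library 411 are Wilson intervals and cover counting error only. Labels give each library an animal number and no litter or batch. Alternatives were DESeq2 1.42.0, RLE factors, no filter, unstranded counts, only the groups compared, libraries left out and, for shares, other denominators. The fit was tested on simulated data. Pathway lists and nearest genes without 409 and 411 were added after the data were seen.

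The genes named are the 7 members, the 2 most abundant genes of each pathway list, any gene past the threshold, and the 3 genes nearest to a member in profile. Of these, 3 are not reported here. The members and lists were chosen with earlier results of these data known.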

Additional observations from a re-analysis of the deposited data

Results flagged for a closer look

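Within each group of 4, a library far from its neighbours was looked for in 42 sets of values, the level and the share of each of the 7 genes in each group. Chance alone gives about 1 in 20, or 2.1, and 7 were found, 6 of them in library 411. Its Gabra3 level was 79.1 CPM, with the nearest other Het DMSO library at 7.52 CPM. Its shares of the 7 genes per kilobase were 4.97% for Gabra2 (nearest 0.825%), 29.3% for Gabra3 (nearest 0.852%), 4.87% for Gabra4 (nearest 1.12%), 20.6% for Gabrb1 (nearest 2.11%) and 39.7% for Gabrb2 (nearest 18.0%). These shares add to a fixed whole, so they are not independent of the low Gabra6 and Gabrd of that library. The remaining one was the Gabrd share of library 410 in Het Hit 2, 15.1%, with the nearest other library at 20.0%.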

How the results depend on the processing

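No member was called under any alternative run, with edgeR or DESeq2 adjusted p from 0.369 to 1.0. Of 399 alternative fold changes of the members, 363 kept their sign and 36 reversed, 25 of them with 1 library left out. No paired analysis was possible because animal numbers do not recur between groups.

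Without libraries 409 and 411, log2 fold changes reversed in Het DMSO against WT DMSO to -0.0614 (Gabra2), -0.16 (Gabra3), 0.0582 (Gabra6), -0.32 (Gabrb1) and 0.0711 (Gabrb2), and in Het Hit 2 against Het DMSO to 1.03 (Gabra3), -0.22 (Gabra6), 0.27 (Gabrb1) and -0.14 (Gabrb2). With no filter Gabra2 was at -0.0131, and without 425 and 426 Gabrd was at 0.0533, both in Het DMSO against WT DMSO. Gabbr2 in Het Hit 2 against Het DMSO, 0.00558 in the fit reported, was at -0.00268 with no filter, -0.0157 with DESeq2, -0.0138 with RLE factors and -0.000798 with unstranded counts. The cause was not tested.

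With 1 library left out, values in Het DMSO against WT DMSO ranged from -0.45 to 0.34 (Gabra2), -0.45 to 1.92 (Gabra3), -0.35 to -0.0414 (Gabra4), -0.84 to -0.0836 (Gabra6), -0.66 to 0.46 (Gabrb1), -0.23 to 0.0127 (Gabrb2) and -0.61 to 0.38 (Gabrd). In Het Hit 2 against Het DMSO they ranged from -0.29 to 0.49 (Gabra2), -1.29 to 1.32 (Gabra3), -0.0831 to 0.22 (Gabra4), -0.0771 to 0.69 (Gabra6), -0.49 to 0.62 (Gabrb1), -0.0796 to 0.17 (Gabrb2), -0.62 to 0.37 (Gabrd) and -0.0799 to 0.0852 (Gabbr2). In Het Hit 2 against WT DMSO they ranged from -0.0685 to 0.17 (Gabra2), 0.26 to 1.18 (Gabra3), -0.21 to -0.0133 (Gabra4), -0.32 to -0.0548 (Gabra6), -0.20 to 0.0695 (Gabrb1), -0.13 to -0.0179 (Gabrb2) and -0.39 to -0.0772 (Gabrd).

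Over all genes, 1, 0 and 1 were called in Het DMSO against WT DMSO, Het Hit 2 against Het DMSO and Het Hit 2 against WT DMSO. DESeq2 called 42, 0 and 23, no filter 1, 0 and 4, unstranded counts 1, 0 and 2, only the groups compared 0, 0 and 54, leaving out 409 and 411 gave 18, 0 and 90, and leaving out 425 and 426 gave 0, 0 and 0. Leaving out 1 library gave 0 to 9, 0 and 0 to 14. The median Gabra6 share became 41.3% in WT DMSO, 37.9% in Het DMSO and 38.5% in Het Hit 2 with all GABA-A subunit genes as the whole.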
